A study of Mus musculus with 27 samples.

Results

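Collagens are the triple-helical proteins that give the extracellular matrix its strength, and each gene of the family encodes one alpha chain of a collagen type. The genes described here are the 44 mouse genes whose symbol is Col, a number, a and a number, among 61346 distinct gene symbols in 3 RNA count tables, so they were chosen by name and not by any measured value. Chains of types I, III and V assemble into the fibrils of interstitial connective tissue and are made chiefly by fibroblasts, in the pancreas also by stellate cells. Types II, IX and XI form the fibrils of cartilage, and type IV forms the network of basement membranes, the thin sheets beneath epithelia and around blood vessels. In the pancreas islet beta cells contact a basement membrane laid down by the endothelium of the islet capillaries rather than by the beta cells themselves.

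The study concerns Nkx2.2, a homeodomain transcription factor of pancreatic endocrine cells and ventral spinal cord, and a mutation of its SD domain, a short conserved stretch outside the homeodomain. Whole pancreas of E15.5 embryos, staged in days of gestation, was profiled in 4 SDmut embryos, which carry the domain mutation, and 3 controls. Isolated islets came as 3 samples with the mutation in beta cells (betaSDmut) and 2 controls at 8 weeks, and as 2 samples labelled as a beta-cell knockout (betaKO) and 2 controls at 4 weeks. Motor neuron progenitors made from mouse embryonic stem cells were taken at day 4 as 3 samples without induction (pMN), 3 in which doxycycline switched on FLAG-tagged Nkx2.2 (iNkx2.2) and 2 from a separate line that carries the inducible FLAG-tagged SD mutant (iSDmut). The pMN samples are the untreated iNkx2.2 line, and doxycycline was given at 1 µg/ml for about 16 hours, so agent and transgene change together, and iSDmut differs from the other groups in its line as well. The labels of the 4-week islet samples name genomic DNA as the molecule, although RNA counts are given for them, and this was not resolved. The labels give neither the strain nor the Cre driver of the beta-cell alleles, and each islet genotype was seen at 1 age. Nkx2.2 binding was mapped by chromatin immunoprecipitation sequencing (ChIP-seq) in MIN6, an insulinoma line of mouse beta cells.

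Levels are given as counts per 1000000 (CPM, scaled by TMM factors within each table), and a gene was called when its adjusted p was under 0.05 in edgeR's quasi-likelihood test with Benjamini-Hochberg adjustment over all genes tested. The 24 RNA libraries held 38447596 to 41840638 counts in E15.5 pancreas, 12398041 to 32385406 in islets and 17757991 to 46840701 in progenitors. The labels do not state that replicates came from separate animals or cultures, although the embryo titles carry separate identifiers, so the p-values measure the spread between these samples only. Nkx2-2 RNA was at 54.8 to 91.3 CPM over both E15.5 groups, and a mutation inside the coding sequence is not checked by a gene-level count. It was at 92.8 and 64.3 CPM in the islets labelled betaKO against 102.5 and 76.2 CPM in their controls, so the counts do not show the loss that the label names. In progenitors it was at 5.40 to 11.6 CPM in pMN, 343 to 378 in iNkx2.2 and 245 to 248 in iSDmut. There were 2 E15.5 libraries that stood apart: a list of skeletal muscle markers summed to 5701 CPM in control 3 and 6590 in SDmut 2, against 16.6 to 81.9 in the other 5. Among progenitors, iSDmut 1 was lower than iSDmut 2 for most collagens. The titles place iSDmut 1 in sequencing lane 2 and iSDmut 2 in lane 3. Replicates 1 and 2 of pMN and iNkx2.2 were in lane 2 and replicate 3 of each in lane 4, so library and lane cannot be told apart in iSDmut.

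All collagens together took 0.903 to 2.58% of the counts of an E15.5 pancreas library, 0.0521 to 0.141% of an islet library and 0.127 to 0.353% of a progenitor library. At E15.5, 37 of the 44 genes reached 1 CPM in every library, against 28 of the 43 islet rows (Col26a1 has no islet row) and 24 of 44 in progenitors. The leading chains differed. Per kilobase of exon, fibril chains led in the embryonic pancreas, with Col1a1 at 519 ± 236 CPM per kb (SD, n = 7 libraries), Col3a1 at 382 ± 133 and Col1a2 at 177 ± 72.3. Col4a1, the main basement membrane chain, followed Col6a1 at 130 ± 18.2 CPM per kb, with a spread far below that of the fibril chains. In islets the authors' FPKM values (fragments per kilobase of transcript, scaled to depth) put Col4a1 first at 58.5 ± 24.4 FPKM (n = 9), then Col4a2 at 32.2 ± 12.5, Col3a1 at 27.1 ± 12.7 and Col15a1, a chain of the outer face of vascular basement membranes, at 12.7 ± 4.96. Col4a2, Col3a1 and their neighbours overlapped in their spread, as did Col15a1 and Col1a2 at 12.4 ± 5.26 FPKM. In progenitors Col18a1, whose C-terminal fragment is endostatin, stood first at 82.0 ± 18.3 FPKM (n = 8), before Col4a1 at 61.3 ± 31.2, Col4a2 at 34.3 ± 17.1 and the cartilage chain Col2a1 at 12.7 ± 4.18, while Col1a2 was at 3.75 ± 2.39.

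Some chains kept a narrow ratio of counts to the partner they assemble with. Col4a1 and Col4a2 make up the common type IV trimer and are transcribed in opposite directions from starts 21 bp apart (chromosome 8, GRCm38, starts at 11312826 and 11312805). Their ratio, Col4a2 to Col4a1, was 0.508 to 0.635 in E15.5 pancreas, 0.497 to 0.580 in islets and 0.467 to 0.530 in progenitors. Col6a2 to Col6a1, the pair of type VI microfibrils, was 1.13 to 1.28 at E15.5 and 1.25 to 1.54 in islets, and spread more in progenitors, at 1.29 to 2.68. For type I the ratio of Col1a2 to Col1a1 varied more: 0.590 to 0.732 at E15.5, 1.27 to 2.23 in islets and 2.80 to 11.8 in the 7 progenitor libraries with enough Col1a1 counts.

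Collagens varied widely between E15.5 libraries of the same genotype, and none was called between genotypes. The summed fibrillar chains were at 7006, 13349 and 18199 CPM in controls 1 to 3 and at 10900, 16188, 5893 and 7386 CPM in SDmut 1 to 4. The 2 groups overlapped, and the highest library exceeded the lowest by 3.09-fold. Col1a1, the major fibril chain, was at 1922, 4234 and 5267 CPM in controls and 3293, 5249, 1592 and 2264 in SDmut, a log2 difference of -0.30 (SE 0.47, edgeR adjusted p = 1.00). Col3a1, which forms fibrils with type I in distensible tissues, was at 2663, 4479 and 5289 CPM in controls and 3726, 5308, 2223 and 2563 in SDmut. The same libraries were high for both: controls 2 and 3 and SDmut 2. Basement membrane chains spread less, with a sum of 1469, 1792 and 1965 CPM in controls and 1706, 1807, 1221 and 1432 in SDmut, a 1.61-fold range over the 7 libraries. Col4a1 was at 896, 1038 and 1145 CPM in controls and 1020, 1079, 761 and 863 in SDmut, and Col18a1 at 409, 508 and 483 CPM against 468, 474, 371 and 433. Both groups overlapped for each. The remaining abundant chains behaved alike: Col1a2 was at 1340, 2707 and 3106 CPM in controls and 2353, 3342, 1166 and 1411 in SDmut. Col5a1, which seeds type I fibrils, was at 576, 1073 and 1252 CPM against 850, 1165, 490 and 585. Col6a1, a chain of beaded microfibrils, was at 486, 735 and 887 CPM against 573, 957, 396 and 492.

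**Figure D1:**
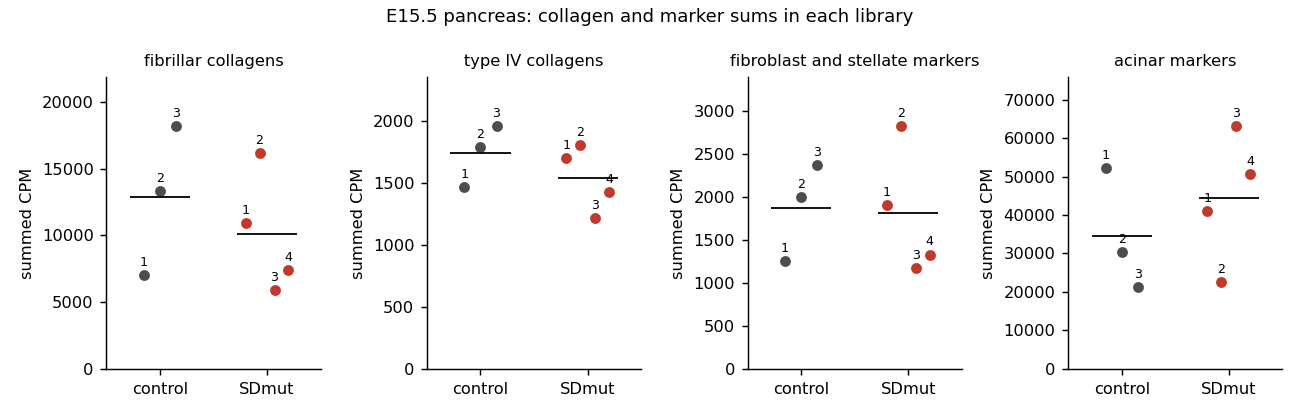
Summed levels in each E15.5 pancreas library (CPM, linear axes from 0) of fibrillar collagens, type IV collagens, fibroblast and stellate markers and acinar markers, with libraries numbered and group means as lines. Fibrillar collagens ran from 5893 to 18199 CPM with both groups overlapping, and the 3 libraries with the highest fibrillar sums had the lowest acinar sums.

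Markers of cell types moved with the collagen sums. A list of 12 fibroblast and stellate markers, which holds no collagen, summed to 1251, 2002 and 2371 CPM in controls and 1907, 2831, 1170 and 1332 in SDmut. A list of 20 acinar markers ran the other way, at 52315, 30454 and 21215 CPM in controls and 40969, 22469, 63203 and 50637 in SDmut. Their part in the collagen levels was not tested. In bulk samples fewer cells of a type and less RNA per cell cannot be told apart. SDmut 3 had the most acinar and the least fibrillar collagen RNA, and the libraries with muscle transcripts, control 3 and SDmut 2, had the most collagen. Stromal matrix partners such as Dcn, Fn1 and Sparc, 20 genes of which Dcn, Lum and Fbln1 are also on the fibroblast list, summed to 2468, 6017 and 6126 CPM in controls and 3868, 5823, 2291 and 2913 in SDmut, so the same 3 libraries led there too.

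No collagen was called at E15.5: 0 of the 43 tested, against 1 of 18723 genes (0.00534%) over the whole table in edgeR's test, and 0 collagens had groups that did not overlap, against 1.61% of genes higher and 1.99% lower. Col10a1, the hypertrophic cartilage chain, stayed under the filter with at most 6 counts in a library. With DESeq2 0 collagens were called as well, among 25 genes (0.134%). At an unadjusted p under 0.05 there were 5 collagens, all of them cartilage chains with lower values in SDmut (Col2a1, Col9a1, Col9a2, Col9a3 and Col11a2), while 2.54% of all genes passed. The median log2 difference was -0.24 over the collagens and 0.01 over all genes, with 36 collagens lower and 7 higher. This lean moved with single libraries: the median was -0.05 without control 3 (24 lower), -0.13 without SDmut 3, -0.48 without control 1 and -0.53 without SDmut 2 (38 lower), and -0.25 (36 lower) without both libraries that held muscle transcripts. With the title number as a block it was -0.18 (32 lower). None of the genes of collagen biosynthesis (30 tested), collagen turnover (14), stromal matrix partners (20), basement membrane partners (19) or collagen receptors (8) was called, and the authors' deposited table lists 38 collagens with 0 called.

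The 5 cartilage chains rested on a single library. Col2a1, the fibril chain of cartilage, was at 36.8, 49.9 and 1627 CPM in controls and 36.3, 44.9, 29.3 and 46.7 in SDmut, and without control 3 its log2 difference went from -3.86 to -0.14. Col9a1, which decorates type II fibrils, was at 6.15, 8.68 and 208 CPM in controls and 5.83, 5.86, 5.93 and 7.91 in SDmut. Col11a2, a minor chain of cartilage fibrils, was at 35.5, 27.9 and 315 CPM in controls and 18.9, 30.1, 22.6 and 34.6 in SDmut. In each of these genes control 3 stood alone, and the other 6 libraries overlapped. Other cartilage genes did the same in control 3: Acan, the large proteoglycan, was at 138 CPM against 31.7 to 52.7, Matn1 at 16.5 against 0 to 0.0986, Hapln1 at 56.2 against 2.82 to 5.60 and Cnmd at 62.9 against 1.24 to 2.21. Sox9, which pancreatic progenitors also express, was at 107 to 178 CPM over all libraries.

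**Figure D2:**
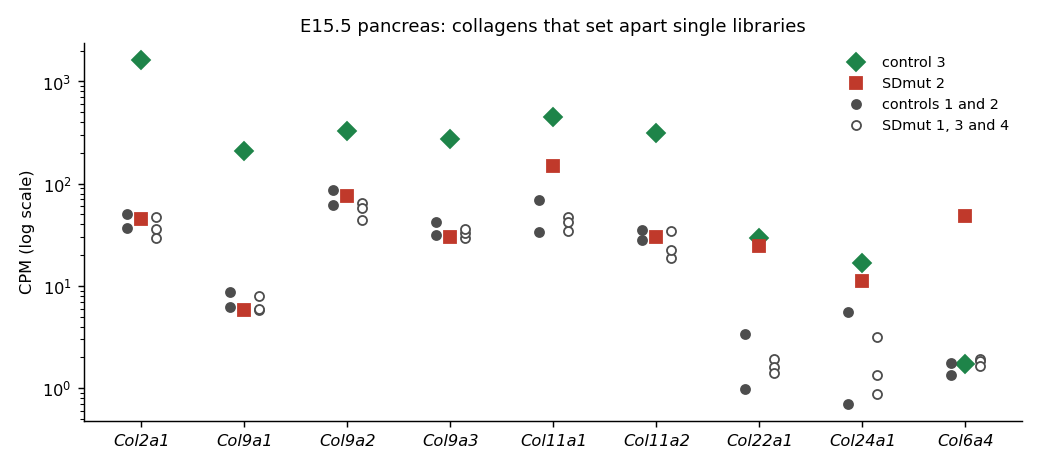
CPM (log axis) of 9 collagens in the 7 E15.5 libraries, with control 3 as diamonds, SDmut 2 as squares and the others as circles. Control 3 is above all others for the cartilage chains (Col2a1 at 1627 CPM), while SDmut 2 alone is high for Col6a4 (48.3 CPM) and shares with control 3 the high values of Col22a1 and Col24a1.

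Other chains were high in both libraries with muscle transcripts. Col22a1, found at muscle-tendon junctions, was at 29.7 CPM in control 3 and 24.7 in SDmut 2 and at 0.969 to 3.40 in the other 5. Col11a1, a cartilage fibril chain that other tissues also make, was at 445 CPM in control 3, 147.9 in SDmut 2 and 33.9 to 68.7 elsewhere. Col24a1, a minor fibril chain, was at 16.7 CPM in control 3, 11.1 in SDmut 2 and 0.702 to 5.50 elsewhere. Col6a4 was high in SDmut 2 alone, at 48.3 CPM against 1.33 to 1.91 in the other 6. Control 3 held muscle transcripts too, and the source of these values was not tested.

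In 8-week islets 4 collagens fell with the beta-cell SD mutation and none rose: Col6a3, Col16a1, Col14a1 and Col4a1. They are 4 of 34 collagens tested, beside 7.94% of all 15413 genes called, 4.07% higher and 3.87% lower, so the share of collagens called lower was above that background, from a small count. A wider set leaned the same way without calls: 28 of 34 collagens had lower values in betaSDmut and the median log2 difference was -0.54, against 0.01 over all genes. Values of the groups did not overlap for 18 collagens on the lower side and 4 on the higher side (22.7% and 23.0% of all genes). At an unadjusted p under 0.05 there were 20 collagens, where 25.7% of all genes passed.

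Col4a1, the chain of the islet basement membrane, was at 299.8 and 266.8 CPM in controls and at 210.4, 175 and 150 CPM in betaSDmut, so all 3 mutant libraries were below both controls. Its log2 change was -0.67 (SE 0.146, edgeR adjusted p = 0.0490), at the edge of the threshold: adjusted p was 0.0517 with RLE factors and 0.0549 with total library sizes. Col4a2, its partner chain, was at 159.6 and 141.4 CPM in controls and 121.9, 98.3 and 86.0 in betaSDmut, also without overlap, with a log2 difference of -0.57 (SE 0.15, edgeR adjusted p = 0.0787). All 5 type IV chains tested had lower values in betaSDmut, with a median log2 difference of -0.59. Col15a1 was at 59.8 and 52.6 CPM in controls and 43.5, 30.0 and 26.2 in betaSDmut (log2 difference -0.76, edgeR adjusted p = 0.0978), and Col18a1 was at 8.16 and 6.07 CPM against 3.37, 7.47 and 6.27, where the groups overlapped.

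Col6a3, the long chain of type VI beaded microfibrils, was at 15.2 and 18.1 CPM in controls and 6.37, 5.62 and 4.24 in betaSDmut, with the groups well apart. Its log2 change was -1.63 (SE 0.185, edgeR adjusted p = 0.00833). The other type VI chains had smaller differences: Col6a1 was at 11.97 and 12.35 CPM in controls and 8.70, 7.93 and 5.54 in betaSDmut (log2 difference -0.73, edgeR adjusted p = 0.0797), and Col6a6, the most abundant chain of that class in islets, at 66.5 and 55.0 CPM against 49.5, 62.1 and 54.5, with overlap. Whether these chains differ in their change was not tested. Col16a1, a fibril-associated chain, was at 5.49 and 8.27 CPM in controls and 2.12, 2.93 and 2.57 in betaSDmut, a log2 change of -1.44 (SE 0.251, edgeR adjusted p = 0.0271). Col14a1, which binds the surface of type I fibrils, was at 16.7 and 15.4 CPM in controls and 10.5, 7.93 and 6.52 in betaSDmut, a log2 change of -0.95 (SE 0.198, edgeR adjusted p = 0.0433). For both genes each mutant library was below each control.

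The major fibril chains were not called. Col1a1 was at 22.5 and 41.8 CPM in controls and 21.7, 18.7 and 11.2 in betaSDmut, with a log2 difference of -0.91 (SE 0.36, edgeR adjusted p = 0.189). Control 1 lay next to the highest mutant library, so the groups barely missed overlapping. Col3a1 was at 107 and 131 CPM against 85.5, 71.4 and 43.1 (log2 difference -0.84, edgeR adjusted p = 0.138), and Col1a2 at 35.7 and 55.5 CPM against 30.6, 30.5 and 25.0 (-0.68, edgeR adjusted p = 0.106). On the higher side Col25a1, a transmembrane collagen of neurons, was at 1.43 and 1.91 CPM in controls and 5.08, 3.18 and 3.51 in betaSDmut, and Col19a1 at 0.382 and 0.303 CPM against 3.25, 2.15 and 0.797. Neither was called by edgeR (adjusted p = 0.0660 and 0.0792), and the groups did not overlap. Another 9 collagens, Col2a1 among them, stayed under the filter with at most 12 counts.

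**Figure D3:**
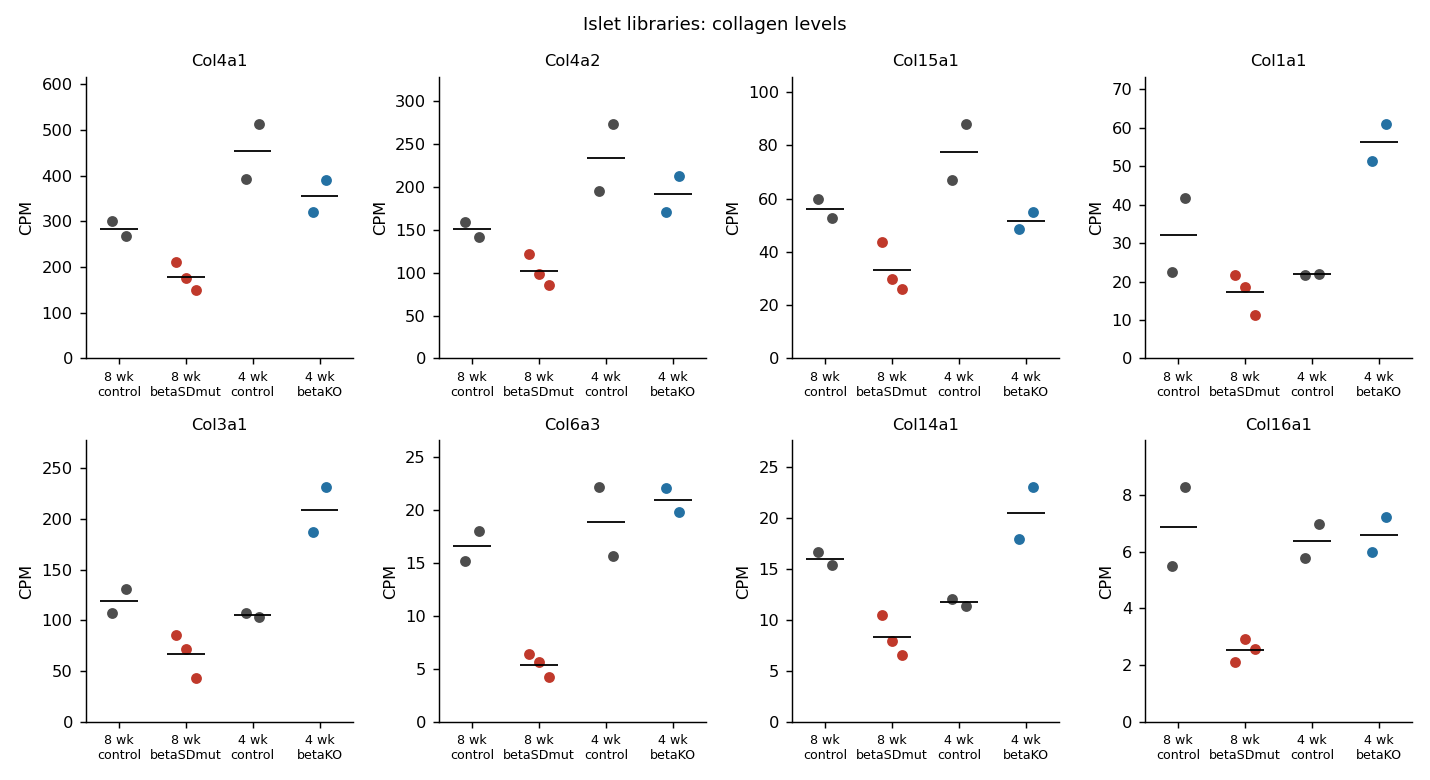
CPM of 8 collagens in each islet library (linear axes from 0), with group means as lines, for 8-week control and betaSDmut and for 4-week control and samples labelled betaKO. All betaSDmut points are below their controls in each gene shown, whereas Col1a1 and Col3a1 are above their controls in the samples labelled betaKO.

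Calls in this comparison depended on single libraries. Without control 1 or without control 2, 0 collagens were called, beside 0.282% and 0.234% of genes (Col6a3 log2 fold change -1.75 and -1.50, edgeR adjusted p = 0.0808 and 0.120). Without betaSDmut 1 there were 10 (18.1% of genes), all lower, and without betaSDmut 2 only Col6a3 (2.52%). Without betaSDmut 3 there were 4 (7.18%), Col19a1 higher and not Col4a1. The fit with replicate numbers as a block leaves out betaSDmut 3 as well, which has no control of its number, and called 4 (4.38% of genes): Col4a1, Col6a3 and Col16a1 lower and Col19a1 higher. DESeq2 called 12 of 34 (13.2% of genes), 10 lower and, higher, Col19a1 and Col25a1. The authors' deposited table lists 30 collagens for this comparison and calls the same 4 genes, with log2 coefficients of -1.66 for Col6a3, -1.43 for Col16a1, -0.99 for Col14a1 and -0.69 for Col4a1. The share of all genes called in that table is not given here.

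Cell markers differed in part along with the collagens. The 12 endothelial markers summed to 643 and 615 CPM in controls and 635, 545 and 508 in betaSDmut, with 0 called and all 12 lower by a median log2 of -0.13. The 10 fibroblast and stellate markers tested had a median of -0.50 with 1 called higher, Vim (log2 change 0.84, edgeR adjusted p = 0.0411). The list summed to 80.3 and 82.4 CPM in controls and 68.9, 81.1 and 73.8 in betaSDmut. A sum follows its most abundant members, so it need not move with the median. Acinar markers were at 16268 and 9928 CPM in controls and 1308, 2660 and 13296 in betaSDmut. With an acinar score as covariate 12 collagens were called (11.1% of genes), all lower, Col4a1 at -0.90 and Col6a3 at -1.96. Over all 34 tested the median was then -0.69, but 22 were lower and 12 higher, against 28 and 6 without the covariate. Msln, a mesothelial marker, was at 43.5 and 65.4 CPM in controls and 12.6, 7.18 and 2.25 in betaSDmut, and the other 4 mesothelial markers were under 0.5 CPM in every islet library. The part of endothelial, fibroblast and mesothelial cells in the collagen values was not tested.

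Genes that make and handle collagen changed in both directions. These lists are to be read against the 7.94% of all genes called, 4.07% higher and 3.87% lower. Of 25 biosynthesis genes tested, 4 rose: Plod2, which hydroxylates lysines of collagen telopeptides, was at 4.82 and 6.59 CPM in controls and 17.0, 20.6 and 17.3 in betaSDmut, with a log2 change of 1.67 (edgeR adjusted p = 0.00652), and Leprel1, a prolyl 3-hydroxylase, rose by 1.89 from 1.96 and 2.25 CPM to 11.8, 6.69 and 5.07. Leprel4 (0.38) and Plod3 (0.35) rose less, and Loxl2, a lysyl oxidase that crosslinks collagen IV, fell by 0.79, from 48.5 and 60.5 CPM to 31.2, 31.5 and 32.1. Of 18 basement membrane partners all had lower values (median log2 -0.41) and 1 was called, Fras1, an epithelial basement membrane protein, at 49.9 and 54.1 CPM in controls and 10.1, 9.58 and 11.5 in betaSDmut. Among 19 stromal matrix partners Bgn and Thbs1 fell (-0.96 and -0.47) and Ogn rose (2.51). Among 7 receptors Itga2, a collagen-binding integrin chain, fell by 2.83, from 3.15 and 3.77 CPM to 0.375, 0.413 and 0.652, and 0 of 10 turnover genes were called.

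In 4-week islets labelled betaKO the fibril chains were high instead: Col1a1 and Col3a1 rose, and no collagen fell. They are 2 of 34 collagens tested, beside 1.56% of 14942 genes called, 0.81% higher and 0.75% lower, so the share was above the background from only 2 genes. Col1a1 was at 21.7 and 22.1 CPM in controls and 51.4 and 61.0 in the libraries labelled betaKO, a log2 change of 1.36 (SE 0.122, edgeR adjusted p = 0.0224). Col3a1 was at 107 and 103 CPM in controls and 187 and 231 in the libraries labelled betaKO, a log2 change of 1.00 (SE 0.121, edgeR adjusted p = 0.0344). For both genes the 2 groups were well apart. Col1a2, at 33.0 and 42.0 CPM in controls and 65.2 and 77.6 in the libraries labelled betaKO, was not called (log2 difference 0.93, edgeR adjusted p = 0.0619), nor was Col8a1, a short-chain collagen of vessel walls, at 2.73 and 2.21 CPM against 6.63 and 6.54 (1.40, edgeR adjusted p = 0.0746).

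By class, 7 of the 8 fibrillar chains tested were higher, with a median log2 difference of 0.83, and 4 of the 5 type IV chains lower, with a median of -0.28. Col4a1 was at 393 and 513 CPM in controls and 321 and 390 in the libraries labelled betaKO, and Col4a2 at 195 and 274 CPM against 171 and 213. The groups overlapped for Col4a2 and were nearly touching for Col4a1 (edgeR adjusted p = 0.415 and 0.584). Col15a1 was at 67.1 and 88.0 CPM against 48.6 and 54.9 (log2 difference -0.58, edgeR adjusted p = 0.173). Of the 34 collagens 22 were higher and the median was 0.16, against -0.00 over all genes, and groups did not overlap for 14 on the higher side and 6 on the lower side (23.0% and 24.5% of all genes). Col6a1 was at 12.6 and 12.3 CPM in controls and 14.7 and 18.8 in the libraries labelled betaKO (log2 difference 0.43, edgeR adjusted p = 0.309), and Col6a6 at 56.1 and 84.0 against 44.2 and 73.4, with overlap. The remaining 9 stayed under the filter with at most 18 counts. Of the matrix lists (24 biosynthesis, 12 turnover, 18 stromal and 18 basement membrane genes, 7 receptors) 0 genes were called.

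**Figure D4:**
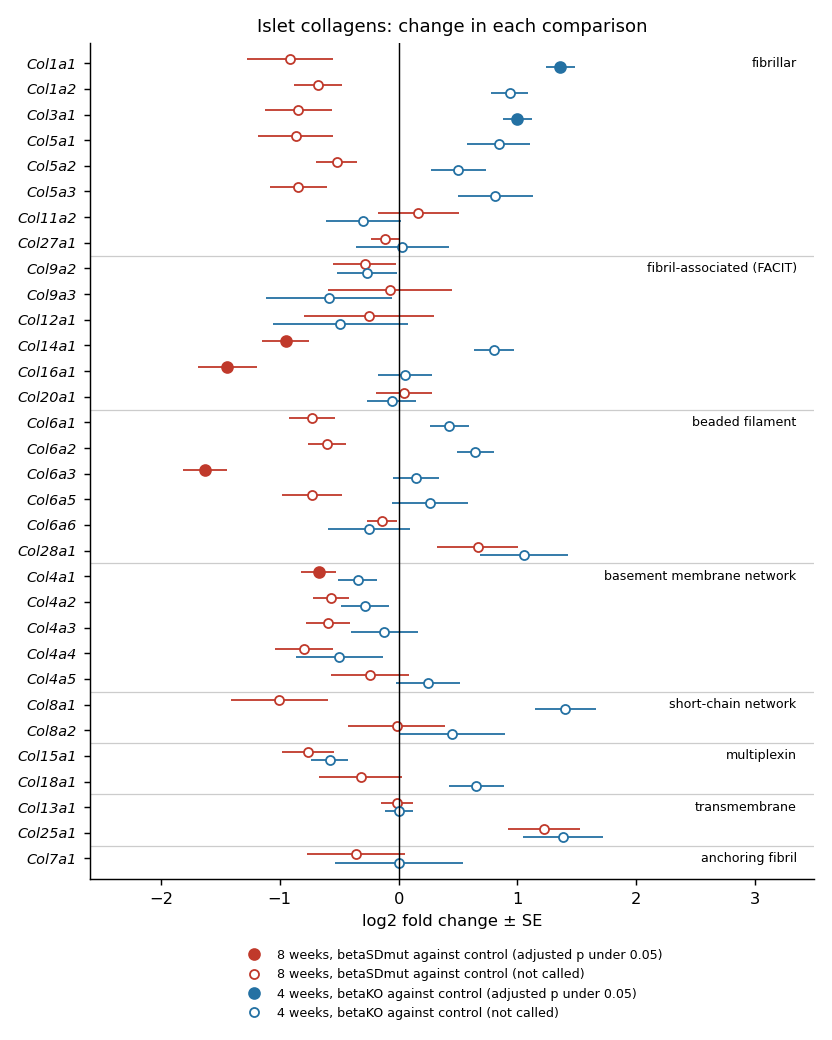
Log2 fold change ± SE of collagens tested at both ages, by structural class, for betaSDmut against control at 8 weeks (red) and for libraries labelled betaKO against control at 4 weeks (blue), with filled points at an adjusted p under 0.05. Most fibrillar chains lie at negative values at 8 weeks (Col1a1 -0.91) and at positive values at 4 weeks (Col1a1 1.36), while type IV chains are below 0 in both except Col4a5 at 4 weeks.

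These calls too depended on libraries and settings. Without control 1 or control 2, 0 collagens were called, beside 0.0259% and 0.0946% of genes (Col1a1 log2 fold change 1.36 and 1.37, edgeR adjusted p = 0.112 and 0.143), without the betaKO-labelled library 2 Col1a1 alone (0.392% of genes), and without library 1 there were 4 (3.05%). With all 9 islet libraries in the model 0 collagens were called, beside 2.68% of genes (Col1a1 1.36, edgeR adjusted p = 0.109), and with an acinar covariate 0 genes of any kind. DESeq2 called 6 collagens (5.15% of genes), Col1a1, Col1a2, Col3a1, Col8a1 and Col14a1 higher and Col15a1 lower. Acinar markers summed to 13767 and 7611 CPM in controls and 52192 and 19110 in the libraries labelled betaKO, endothelial markers to 717 and 811 against 502 and 623 (12 of 12 lower, median log2 -0.45), pericyte markers to 159 and 197 against 123 and 160, and fibroblast markers to 122 and 106 against 95.6 and 135. The part of these cells in the collagen values was not tested.

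Set against each other, the islet effects differed for 2 of 39 collagens, beside 1.21% of 15995 genes called and 0.569% called lower. This difference is the 8-week effect minus the 4-week effect, so genotype, age and any change of protocol between the ages cannot be told apart. Col14a1 fell by 0.95 in betaSDmut and was at 12.04 and 11.4 CPM in 4-week controls against 17.9 and 23.0 in the libraries labelled betaKO, which gave a difference of -1.75 (SE 0.291, edgeR adjusted p = 0.0360). Col6a3, at 22.2 and 15.6 CPM in 4-week controls and 22.1 and 19.8 in the libraries labelled betaKO, differed by -1.77 (SE 0.297, edgeR adjusted p = 0.0363). Values for the type I and III chains were as large without a call: Col1a1 -2.27 (edgeR adjusted p = 0.0819), Col3a1 -1.83 (0.0817) and Col1a2 -1.60 (0.0527). The median over the 39 collagens was -0.38, against 0.01 over all genes, and went to -0.20 without the betaKO-labelled library 2 and to -0.85 with an acinar covariate. With total library sizes it was -0.23, against 0.18 over all genes. Both calls were lost in most fits that left out a library, with adjusted p up to 0.156 for Col14a1 and 0.187 for Col6a3 without 8-week control 2, and only the fits without betaSDmut 1 (2.15% of genes called) or betaSDmut 3 (1.14%) kept both. DESeq2 called 11 collagens (4.08% of genes), and with an acinar covariate 8 were called (0.763% of genes), Col6a3 not among them (edgeR adjusted p = 0.0745). The authors' deposited table for the 3 islet groups lists 15 collagens, of which it calls 9 lower in betaSDmut and 2 higher in betaKO, Col1a2 (0.83) and Col6a2 (0.64), against controls whose age it does not state. The share of all its genes that it calls is not given here, so these counts are not read as many or few.

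In motor neuron progenitors, 4 collagens rose when wild-type Nkx2.2 was induced: Col13a1, Col11a2, Col22a1 and Col16a1, and none fell. They are 4 of 34 tested, beside 9.49% of 15653 genes called, 4.71% higher and 4.78% lower. The share called in either direction was close to that background. The share called higher was above the 4.71%, from a small count. The 3 comparisons of these groups share samples, so their values are set side by side without a test between them. Col13a1, a transmembrane collagen known from the neuromuscular junction, was at 0.278, 0.182 and 0.212 CPM in pMN, 4.26, 2.91 and 4.64 in iNkx2.2 and 1.40 and 3.66 in iSDmut. All induced libraries were above all pMN libraries, and the log2 fold change from pMN was 4.11 for iNkx2.2 (SE 0.472, edgeR adjusted p = 0.00126) and 3.48 for iSDmut (SE 0.506, edgeR adjusted p = 0.00792). Col11a2 was at 11.2, 7.34 and 7.91 CPM in pMN, 25.1, 17.8 and 23.7 in iNkx2.2 and 28.6 and 20.6 in iSDmut. Here too the induced libraries were all above pMN, with log2 fold changes of 1.33 for iNkx2.2 (SE 0.213, edgeR adjusted p = 0.00651) and 1.48 for iSDmut (SE 0.233, edgeR adjusted p = 0.0111).

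Col22a1 was at 22.1, 14.6 and 20.6 CPM in pMN, 41.9, 34.0 and 43.1 in iNkx2.2 and 26.0 and 34.6 in iSDmut. It rose in iNkx2.2 (1.06, SE 0.181, edgeR adjusted p = 0.00900), and in iSDmut, which lay between both groups, the difference from pMN was 0.67 (edgeR adjusted p = 0.104). Col16a1 was at 2.67, 1.52 and 2.62 CPM in pMN, 4.41, 5.50 and 5.69 in iNkx2.2 and 1.79 and 3.07 in iSDmut. It rose in iNkx2.2 (1.18, SE 0.304, edgeR adjusted p = 0.0403), and iSDmut overlapped pMN (0.10, edgeR adjusted p = 0.902). The call for Col16a1 was lost in each fit without one of the 6 pMN or iNkx2.2 libraries (adjusted p from 0.0602 without pMN 3 to 0.121 without pMN 2). Col13a1, Col11a2 and Col22a1 were called in every such fit.

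Of the 2 genes called in both induced groups, the 250 bases upstream of the RefSeq start are shown because both rose together, with Col13a1 by the larger amount. Capitals mark the letters AAGTG or their complement CACTT, the core that NK2-class homeodomains such as Nkx2.2 are known to prefer, searched on both strands (GRCm38.p6, RefSeq, printed 5′ to 3′ on the gene's strand).
Col13a1, chr10:61979109-61979358, - strand: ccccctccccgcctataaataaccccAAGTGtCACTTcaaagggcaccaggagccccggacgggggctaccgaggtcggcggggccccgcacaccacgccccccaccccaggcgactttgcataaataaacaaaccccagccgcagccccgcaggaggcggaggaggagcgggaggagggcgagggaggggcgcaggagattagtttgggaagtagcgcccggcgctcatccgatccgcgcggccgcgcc
Col11a2, chr17:34038888-34039137, + strand: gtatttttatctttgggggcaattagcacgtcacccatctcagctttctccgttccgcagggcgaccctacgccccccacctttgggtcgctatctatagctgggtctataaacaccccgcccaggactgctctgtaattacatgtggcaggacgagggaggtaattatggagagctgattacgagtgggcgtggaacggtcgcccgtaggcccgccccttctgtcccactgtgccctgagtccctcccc

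Col13a1 holds the letters at 2 places next to each other, near the far end of the window, and Col11a2 at none. Over the same window 40.7% of 32851 RefSeq promoters and 13 of the 35 collagen symbols matched hold them. A match is a description and not a binding site.

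**Figure D5:**
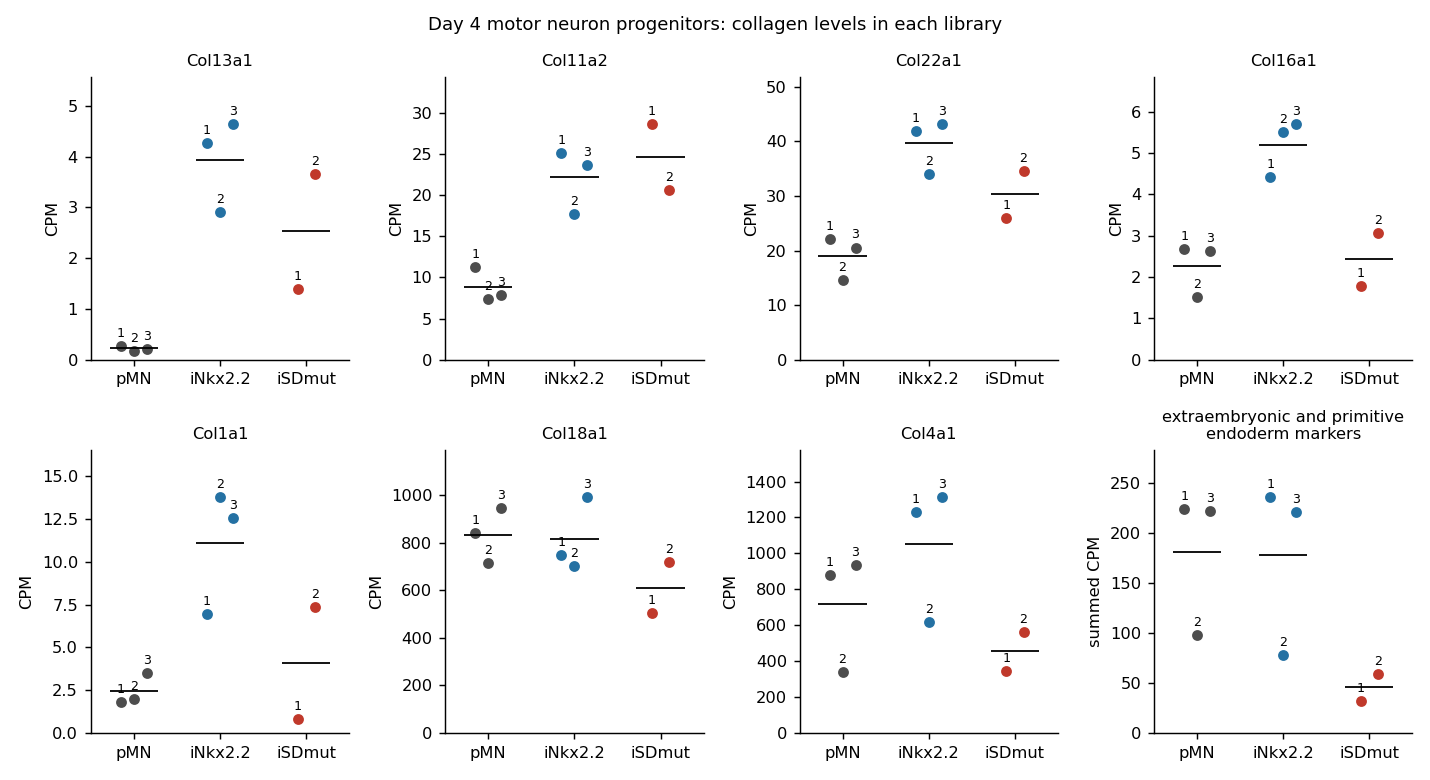
CPM of 7 collagens and the summed CPM of extraembryonic and primitive endoderm markers in each progenitor library (linear axes from 0), libraries numbered, group means as lines. Col13a1 and Col11a2 are above all pMN libraries in each induced library, whereas Col4a1 is low in pMN 2, iNkx2.2 2 and both iSDmut libraries, as the endoderm markers are.

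Most other collagens had higher values in iNkx2.2 without a call. Of the 34 tested, 28 were higher and the median log2 difference was 0.68, against -0.01 over all genes, and the groups did not overlap for 16, all on the higher side (16.0% of all genes higher and 15.4% lower). Col1a1 was at 1.78, 2.00 and 3.51 CPM in pMN, 6.98, 13.8 and 12.6 in iNkx2.2 and 0.840 and 7.35 in iSDmut, with a log2 difference of 2.17 for iNkx2.2 (SE 0.62, edgeR adjusted p = 0.0572). Col1a2 was at 10.8, 23.5 and 19.2 CPM in pMN, 19.6, 56.5 and 38.6 in iNkx2.2 and 4.31 and 36.8 in iSDmut, where the groups overlapped. Col18a1, the most abundant chain per length, was at 841, 714 and 945 CPM in pMN, 749, 701 and 990 in iNkx2.2 and 502 and 718 in iSDmut, a log2 difference of -0.04 for iNkx2.2 that turned positive with total library sizes (0.06). Col2a1 was at 78.0, 78.2 and 93.2 CPM in pMN, 108, 121 and 124 in iNkx2.2 and 38.3 and 108 in iSDmut. Col5a1 was at 26.8, 26.0 and 37.9 CPM in pMN, 42.5, 39.7 and 59.7 in iNkx2.2 and 25.0 and 38.0 in iSDmut, and Col3a1, low in these cells, at 2.11, 3.21 and 2.03 CPM in pMN, 1.45, 2.82 and 1.58 in iNkx2.2 and 1.23 and 1.16 in iSDmut. The iSDmut libraries lay on either side of pMN for Col1a1, Col1a2 and Col2a1. Another 10 collagens stayed under the filter with at most 19 counts.

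Markers of other cells differed between the groups too, and not all lists followed the collagens. The fibrillar chains summed to 186, 200 and 217 CPM in pMN, 275, 325 and 333 in iNkx2.2 and 160 and 290 in iSDmut. Pericyte and smooth muscle markers, of which 3 of 9 stayed under 0.5 CPM, summed to 176, 228 and 263 CPM in pMN. They were at 201, 288 and 301 CPM in iNkx2.2 and 163 and 241 in iSDmut. Within each group these sums and the mesothelial sums ran in the same order as the fibrillar sums. The fibroblast and neural progenitor sums did not, and the fibroblast sum was lower in iSDmut 2 than in iSDmut 1. Fibroblast and stellate markers summed to 979, 920 and 888 CPM in pMN, 1145, 1059 and 1113 in iNkx2.2 and 1083 and 949 in iSDmut. Of the 9 tested, 8 were higher in iNkx2.2 with a median log2 difference of 0.89, and 2 were called, Pdgfrb, a receptor of mesenchymal cells (1.25), and Dcn (1.96), while Lum, Prrx1 and Thy1 stayed under 0.5 CPM. Mesothelial markers summed to 5.23, 8.55 and 9.43 CPM in pMN, 12.8, 14.5 and 21.2 in iNkx2.2 and 4.53 and 19.2 in iSDmut, with 0 of 3 called. Neural progenitor markers summed to 1453, 1324 and 1453 CPM in pMN, 844, 724 and 854 in iNkx2.2 and 1117 and 788 in iSDmut, and 6 of 10 fell in iNkx2.2. The part of these cells in the collagen values was not tested.

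Deviations from the group means correlated between same-numbered pMN and iNkx2.2 libraries. With the replicate number as a block over all progenitor libraries, iSDmut included under its own numbers, 13 collagens were called for iNkx2.2 against pMN. All 13 were higher, and 4629 genes (29.6%) were called over the table. They were the fibril chains Col1a1, Col5a1, Col5a2, Col5a3, Col11a1 and Col11a2, and the fibril-associated Col9a2, Col16a1 and Col22a1. The rest were the short-chain Col8a1 and Col8a2, and Col6a2 and Col13a1. DESeq2 called 10 (14.5% of genes).

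Type IV chains differed by replicate number as well as by group. Col4a1 was at 879, 338 and 937 CPM in pMN 1 to 3, 1229, 618 and 1312 in iNkx2.2 1 to 3 and 344 and 563 in iSDmut. Its log2 difference was 0.55 for iNkx2.2 (edgeR adjusted p = 0.418, and 0.415 with the replicate number as a block over all progenitor libraries). Col4a2 was at 439, 179 and 483 CPM in pMN, 583, 289 and 641 in iNkx2.2 and 170 and 274 in iSDmut. In each numbered pair iNkx2.2 was above pMN, and replicate 2 was the lowest in both groups. Extraembryonic and primitive endoderm markers, of which 9 of 10 reached 1 CPM, summed to 223, 97.9 and 222 CPM in pMN, 235, 77.7 and 221 in iNkx2.2 and 32.1 and 59.2 in iSDmut. Their part in the Col4a1 and Col4a2 values was not tested. Replicate 2 was the lowest for this sum too, in pMN and in iNkx2.2, and iSDmut 1 was below iSDmut 2 for both.

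Between the 2 induced groups 0 of 34 collagens were called by edgeR, beside 44 genes (0.281%) over the table. At an unadjusted p under 0.05 there were 9 (12.5% of all genes), 28 collagens were lower in iSDmut and the median log2 difference was -0.54. The groups did not overlap for 10 collagens on the lower side (16.3% of all genes) and for 1 on the higher side. DESeq2 called 1, Col8a2, a short-chain collagen, at 3.06, 4.21 and 3.09 CPM in iNkx2.2 and 0.112 and 1.25 in iSDmut (log2 change -2.30, 3.02% of genes called), and so did the replicate block (-2.48, 3.37%). Against pMN, iSDmut had 2 of 34 collagens called, beside 3.54% of genes (1.9% higher and 1.64% lower), and 5 at an unadjusted p under 0.05 (20.2% of genes), with groups apart for 5 on the higher side and 1 on the lower side (17.2% and 19.2% of genes). DESeq2 called 4 (8.83% of genes), and so did the replicate block (16.8%). These values turned on which iSDmut library was used: without iSDmut 2 the median against pMN was -0.37 and 4 collagens were called, beside 2.18% of genes (Col13a1 and Col11a2 higher, Col2a1 and Col4a6 lower), and without iSDmut 1 it was 0.47 and Col13a1 alone was called (1.88% of genes). Against iNkx2.2, 7 collagens were called lower without iSDmut 2 (2.91% of genes) and 0 without iSDmut 1 (0.0308%).

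Over all genes 9.49% were called in iNkx2.2 against pMN, 4.71% higher and 4.78% lower. Of 30 biosynthesis genes, 4 rose in this comparison: Pcolce, which enhances procollagen C-propeptide cleavage (1.40), Plod1 (0.82), Serpinh1, the collagen chaperone HSP47 (0.70), and Lepre1 (0.67). Adamts3, a procollagen N-proteinase, fell (-0.75). Among 17 stromal matrix partners Thbs2 (2.08) and Dcn (1.96) rose and Thbs1 (-1.65), Vcan (-1.09) and Fbn2 (-1.08) fell. Among 10 turnover genes Mmp11 rose (0.78) and Timp3 fell (-1.10), among 19 basement membrane partners Frem2 fell (-0.90), and 0 of 7 receptors were called. In iSDmut against pMN, where 3.54% of all genes were called, Pcolce (1.28) and Loxl3 (1.76) rose and Timp3 (-0.91), Thbs1 (-1.62), Vcan (-0.65), Lamb3 (-3.28) and Nid2 (-2.05) fell. The authors' deposited table for progenitors lists 3 collagens, Col11a1, Col11a2 and Col22a1, all called higher in iNkx2.2 than in pMN (0.55, 1.41 and 1.10), and only Col11a2 in iSDmut (1.60). The share of all genes listed there that are called is not given here, so these counts are not read as many or few.

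Nkx2.2 binding events in MIN6 cells lay in or near several of these genes. Of 10749 binding events, of which 6473 are the authors' final sites, 19 lie inside 7 collagen genes. The share of all genes that hold an event was not counted, so these numbers are not read as many or few. Some of these genes are long, with events up to 301 kb from the start of Col19a1 and 189 kb from that of Col22a1. The authors' deposited table joins 7 collagens to 6 sites: Col14a1, Col4a1 and Col4a2 (1 shared site), Col6a6, Col6a1, Col6a3 and Col1a2. Of the 4 genes that fell in 8-week islets, Col14a1, Col4a1 and Col6a3 are among those joined to a site and Col16a1 is not. Every gene of the joining table also stands in the authors' deposited table of the 3 islet groups, which lists 15 collagens and calls 9 of them lower in betaSDmut. The overlap of joined genes with the genes that fell was therefore partly fixed in advance and is not evidence of binding. The sites were at a distance from gene starts. The Col14a1 site (68 and 40 counts in 500 bp in the 2 ChIP libraries) lies in an intron 77.9 kb from the start, the Col4a1 and Col4a2 site (89 and 68 counts) in an intron of Col4a1 97.9 kb from its start, and the Col6a6 site (161 and 99 counts) in an intron 10.6 kb from the start. The Col6a3 site (127 and 97 counts) lies between genes 99993 bp from the start, the Col1a2 site (152 and 91 counts) between genes 107 kb upstream, and the Col6a1 site (71 and 55 counts) in an intron of Pcbp3. The strongest events inside collagen genes were others: an intron of Col14a1 with 537 and 430 counts, which ranks 89 of 10749 by mean log2 CPM, and an intron of Col22a1 with 456 and 331 counts, which ranks 167. No input library was analysed here, so no enrichment over input is given.

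The 101 bases around these sites are shown so that their letters can be compared (GRCm38, + strand, 5′ to 3′). Capitals mark AAGTG or CACTT, the NK2 core, and GCAAC or GTTGC, letters of the X-box half-site that RFX factors are known to bind. The second motif was chosen after the sequences had been read.
Col14a1, chr15:55385563-55385663, + strand: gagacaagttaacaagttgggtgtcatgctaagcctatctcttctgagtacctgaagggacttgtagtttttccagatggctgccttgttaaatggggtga
Col14a1, chr15:55502914-55503014, + strand: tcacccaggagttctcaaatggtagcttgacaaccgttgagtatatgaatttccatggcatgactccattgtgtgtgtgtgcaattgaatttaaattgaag
Col4a1, chr8:11214897-11214997, + strand: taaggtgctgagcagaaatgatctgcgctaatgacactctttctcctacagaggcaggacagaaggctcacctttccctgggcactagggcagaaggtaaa
Col6a6, chr9:105817497-105817597, + strand: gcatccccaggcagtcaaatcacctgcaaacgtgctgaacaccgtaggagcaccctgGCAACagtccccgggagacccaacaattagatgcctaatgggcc
Col6a3, chr1:90743928-90744028, + strand: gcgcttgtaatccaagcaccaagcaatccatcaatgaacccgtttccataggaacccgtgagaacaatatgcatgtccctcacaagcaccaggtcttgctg
Col1a2, chr6:4397730-4397830, + strand: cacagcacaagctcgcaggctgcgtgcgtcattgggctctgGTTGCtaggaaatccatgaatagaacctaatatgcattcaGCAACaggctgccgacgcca
Col6a1, chr10:76809992-76810092, + strand: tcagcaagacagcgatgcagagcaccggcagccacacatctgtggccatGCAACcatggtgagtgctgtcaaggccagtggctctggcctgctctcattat
Col22a1, chr15:71853696-71853796, + strand: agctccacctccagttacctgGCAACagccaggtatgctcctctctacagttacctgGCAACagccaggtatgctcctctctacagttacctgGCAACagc

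None of these 8 windows holds the NK2 core, which is in 1 of all 15 final or joined sites at collagens, 23.8% of all event windows, 22.7% of final sites and 21.9% of windows 1000 bases downstream of the events. The half-site letters are in 6 of the 15, 37.6% of all events and 39.8% of final sites, against 11.1% of the downstream windows, so collagen sites held them about as often as other events. In the Col1a2 window they occur 2 times, once in each orientation. In the Col22a1 window they occur 3 times in a repeat: 57 of 65 bases equal the base 36 positions further on, and a neighbouring event was called 36 bp away. Reads from repeats can be placed at more than 1 copy, so the count at Col22a1 is uncertain. Absence of the core says only that these letters are not in these windows.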

How the data were processed

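RNA was measured in 24 libraries, made with an Illumina TruSeq kit per the labels' protocols. The authors deposited raw read counts per gene in 3 tables; STAR, Cufflinks, DESeq2, edgeR 3.20.9, limma 3.34.9, bedtools 2.17.0 and mm10 are named without a role in the submitters' processing notes, and strandedness and the counting rule are not given in the sources used here. The authors' FPKM values, as deposited, served for levels per length in islets and progenitors, and CPM per kilobase of GENCODE vM21 exon at E15.5. Tables of log2 fold change and call, with adjusted p-values at E15.5, were made by the authors with DESeq2 (E15.5) or edgeR and limma (others), per the deposited description file. For ChIP, the authors gave a count over 500 bp around each event called with GEM and a log2 CPM for each final site, per the deposited description file. Counts were fitted with edgeR 4.0.16 in R 4.3.3 (TMM factors, filterByExpr, robust quasi-likelihood test) and Benjamini-Hochberg adjustment over all genes passing the filter, with a threshold of 0.05. The 3 progenitor comparisons came from 1 model and the difference of islet effects from another over 9 libraries. SE is the log2 change divided by the root of F. The procedure was tested on simulated data.

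Alternatives were RLE factors, total library sizes, no filter or a filter of 1 CPM, DESeq2 1.42.0, leaving out each library, replicate numbers as a block, acinar or muscle marker scores as covariates, other sets of libraries and 1 sequencing lane. In progenitors the replicate numbers come from the titles. Deviations from the group means of same-numbered pMN and iNkx2.2 libraries correlated at r = 0.711, 0.746 and 0.758, so these were taken as pairs. The block that held the pairs covered all progenitor libraries, iSDmut included, so it was not a fit of these pairs alone. Named are all collagens called, Col1a1, Col1a2, Col2a1, Col3a1, Col4a1, Col4a2, Col6a1, Col18a1, the 5 most abundant per tissue, and up to 5 called genes per matrix list; cartilage chains, Col19a1, Col25a1, Col8a1, Col8a2, Col15a1, Col6a4, Col22a1 and Col24a1 at E15.5 and Msln were named after their values were seen. The members and lists were chosen with earlier results of these data known. Promoters are RefSeq, GRCm38.p6. An input library of the ChIP experiment was not analysed here.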

Additional observations from a re-analysis of the deposited data

Results flagged for a closer look

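Among the 4 SDmut pancreases at E15.5, 50 sets of values (single collagens and class sums) were checked for a library far from the other 3, and 6 had one. The limit used marks about 1 in 20 such sets by chance when they are independent, and these are not, since 5 of the 6 came from SDmut 2. SDmut 2 stood high for Col6a4 at 48.3 CPM, Col6a5 at 5.72, Col11a1 at 147.9, Col22a1 at 24.7 and Col28a1 at 1.49 CPM, and this is 1 of the libraries with skeletal muscle transcripts (6590 CPM for that marker list). SDmut 4 stood high for Col9a1 at 7.91 CPM, against 5.83 to 5.93 CPM in the other 3, a small gap beside the 208 CPM of control 3. The islet effects of betaSDmut and of the samples labelled betaKO differed by a test of the difference itself for Col14a1 (-1.75 on the log2 scale) and Col6a3 (-1.77). Age and genotype cannot be told apart in that difference.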

How the results depend on the processing

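Over the single collagens followed through the alternatives, 861 values kept direction and side of the threshold, 50 lost a call, 46 gained one and 29 changed sign. Unless a value says otherwise, the cause of a change was not tested. Total library sizes moved the split of higher and lower calls from 628 and 596 to 927 and 434 in 8-week islets, from 103 and 91 to 168 and 58 for the difference of islet effects (median of all genes 0.18 in place of 0.01), from 738 and 748 to 917 and 412 for iNkx2.2 and from 297 and 257 to 342 and 164 for iSDmut against pMN. Counts of genes called moved as follows. At E15.5 they were 2 with total library sizes, 25 with DESeq2, 0 with the title number as a block, 4 with a muscle covariate and 0 to 2 without 1 library. In 8-week islets they were 2041 with DESeq2 and 37 to 2765 without 1 library. In 4-week islets they were 127 with total library sizes, 372 without a filter, 770 with DESeq2, 428 with all 9 libraries, 0 with an acinar covariate and 4 to 478 without 1 library. For the difference of islet effects they were 653 with DESeq2, 122 with an acinar covariate and 0 to 343 without 1 library. For iNkx2.2 against pMN they were 2271 with DESeq2, 960 with lane 2 alone and 412 to 1299 without 1 library. For iSDmut against pMN they were 1382 with DESeq2, 295 with only the 2 groups and 171 to 349 without 1 library, and against iNkx2.2 145 without a filter, 473 with DESeq2, 13 with only the 2 groups and 2 to 467 without 1 library.

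Counts of collagens called were 12 in 8-week islets with DESeq2, 12 with an acinar covariate and 0 to 10 without 1 library. In 4-week islets they were 1 with total library sizes, 6 with DESeq2, 0 with all 9 libraries, 0 with an acinar covariate and 0 to 4 without 1 library, and for the difference 11 with DESeq2, 8 with an acinar covariate and 0 to 4 without 1 library. In progenitors they were 10 with DESeq2, 8 with only the 2 groups, 7 with lane 2 alone and 3 to 5 without 1 library for iNkx2.2, 4 with DESeq2 and 1 to 4 without 1 library for iSDmut against pMN, and 1 with DESeq2 and 0 to 7 without 1 library against iNkx2.2. For iNkx2.2 against pMN with only the 2 groups the share of all genes called is not given here, so those 8 collagens stand without a background. Without Col6a6 the log2 difference of the summed beaded filament chains was -0.79 in place of -0.40 at 8 weeks and 0.44 in place of 0.09 at 4 weeks.

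With the replicate number as a block over all progenitor libraries, iSDmut included, the fit gave 4629 genes and 13 collagens for iNkx2.2 against pMN. Numbers were not taken as pairs elsewhere (r from -0.036 to 0.105 in islets and 0.069 to 0.413 for iSDmut): there the block gave 665 genes in 8-week islets, with betaSDmut 3 left out, 2626 genes and 4 collagens for iSDmut against pMN, with Col1a2 at -0.0928, and 528 genes and 1 collagen against iNkx2.2.

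Signs turned in uncalled genes only. Leaving out 1 library gave log2 differences from -0.677 to 0.0115 for Col1a1 and from -0.538 to 0.0329 for Col1a2 at E15.5, the highest without control 3. Col6a6 ranged from -0.267 to 0.000199 in 8-week islets, from -0.659 to 0.0773 in 4-week islets and from -0.206 to 0.527 for the difference, and Col15a1 from -0.420 to 0.00823 for the difference. For iNkx2.2 against pMN Col18a1 ranged from -0.189 to 0.0760. For iSDmut against pMN the ranges were -1.548 to 1.575 for Col1a1, -2.048 to 1.044 for Col1a2, -1.120 to 0.375 for Col2a1, -0.276 to 0.327 for Col5a1 and -1.314 to 0.157 for Col6a1, the lowest without iSDmut 2. With an acinar covariate Col18a1 was at 0.0604 in 8-week islets, Col4a1 at 0.0621, Col4a2 at 0.206 and Col6a6 at 0.589 in 4-week islets and Col6a6 at -0.141 for the difference. Col18a1 in iNkx2.2 was at 0.0617 with total library sizes and 0.00606 without a filter. The collagens under the filter had at most 19 counts in a library and were not tested. Where 1 library was left in a group, its spread was assumed to be like that of the other groups.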
